A study of Homo sapiens with 4 samples.

Results

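Toll-like receptors (TLRs) are membrane receptors of the innate immune system, and the genes described here are 5 of them with the coreceptors and adaptors that work beside them. They are TLR1, TLR2, TLR4, TLR6 and TLR8, the coreceptors CD14, LY96 and CD36, and the adaptors MYD88 and TIRAP. They were chosen by symbol, and all 10 were found among the 20348 genes of the deposited count table. K562 is a human chronic myeloid leukemia line with erythroid features and THP-1 a human acute monocytic leukemia line, and each was treated with 100 nM periplocin, a cardiac glycoside, or with DMSO alone for 72 h. Poly-A RNA was sequenced from 1 library per condition, so there were 4 libraries in all and no replicate of any condition. The controls are named blank in the sample titles and DMSO in the library names, and the dose and time come from the methods. Library totals were between 16381172 and 20622719 counts, and mitochondrially encoded genes took 2.07% to 5.62% of them.

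TLR2 recognizes bacterial lipoproteins as a heterodimer, with TLR1 for triacylated and with TLR6 for diacylated ligands, and CD36, a scavenger receptor for fatty acids and oxidized lipids, assists the TLR2 and TLR6 pair. TLR4 senses lipopolysaccharide together with LY96 (MD-2), to which CD14 hands the ligand, and CD14 is the classic surface marker of monocytes. TLR8 sits in endosomes and senses single-stranded RNA. MYD88 carries the signal from these receptors to NF-κB, and TIRAP bridges MYD88 to TLR2 and TLR4 at the membrane.

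The genes lie apart in the genome except for TLR1 and TLR6, which neighbour each other on the minus strand of chromosome 4. On GRCh38 in GENCODE release 29, TLR1 spans chr4:38790677-38856817 and TLR6 spans chr4:38823715-38856817, so both have an annotated form that starts at the same base, and their exons share 57 bp. Of 4841 possible stretches of 150 bases in TLR1 transcripts, 69 (1.43%) also occur in TLR6. TLR2 spans chr4:153684070-153705702, TLR4 spans chr9:117704175-117724730 and TLR8 spans chrX:12906620-12923169, all on the plus strand. CD14 spans chr5:140631728-140633701 on the minus strand. MYD88 spans chr3:38138478-38143022, TIRAP chr11:126283065-126298845 and CD36 chr7:80369575-80679277, all on the plus strand. An unnamed gene, AL160272.2, shares 558 exon bp with TLR4 on the same strand and had at most 42.0 counts in a library. The library kit named in the labels does not mark strand, so reads of TLR8, TIRAP and CD36 cannot be told apart from those of the antisense genes that overlap them.

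The 250 bases upstream of RefSeq start sites (GRCh38.p14) were searched on both strands for GAGGAA. It is a form of the site bound by ETS factors such as PU.1 (SPI1), a regulator of monocyte genes. Other forms of ETS sites were not searched for. Windows were matched for 7 of the 10 genes, TLR2, TLR4, TLR6, TLR8, CD14, MYD88 and CD36, and the letters were found in at least 1 window of 5 of them, against 27.3% of 27305 genes genome-wide. CD36 has 6 starts in that table, and 3 of its 6 windows held a match. TLR4 held 4 matches, while TLR2 and TLR8 held none. A further 5 motifs were searched in the same way. The Sp1 box GGGCGG was found for 3 of the 7 genes (46.2% of all genes), the AP-1 motif TGANTCA for 2 (8.06%), the GATA motif AGATAA for 2 (11.1%), the C/EBP-like motif TTGCNNAA for 1 (11%) and an NF-κB-like motif for 0 (0.645%). The stretches of 30 bases around the matches of CD14, TLR4, TLR6 and MYD88 are shown. The letters can thus be read beside the level of SPI1 in the cell lines, given further on. RefSeq starts differ from the GENCODE spans above for some genes. The stretches of CD14 and MYD88 and most of those of TLR4 lie inside those spans. Capitals mark GAGGAA or, where the match is on the other strand, TTCCTC.
MYD88, 18 bases upstream, chr3:38138631-38138660, plus strand: ccgcaggagaaaGAGGAAgcgctggcagac
TLR6, 195 bases upstream, chr4:38856995-38857024, minus strand: tttgtaagttgcTTCCTCacacgaattaga
CD14, 96 bases upstream, chr5:140633254-140633283, minus strand: ggggctggctcgGAGGAAgagaggtgggga
TLR4, 224 bases upstream, chr9:117704167-117704196, plus strand: aagccaactagcTTCCTCttgctgtttctt
TLR4, 171 bases upstream, chr9:117704220-117704249, plus strand: tcttcttctaacTTCCTCtcctgtgacaaa
TLR4, 99 bases upstream, chr9:117704292-117704321, plus strand: tgccgctttcacTTCCTCtcaccctttagc
TLR4, 40 bases upstream, chr9:117704351-117704380, plus strand: gtggggcggctcGAGGAAgagaagacacca

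The whole windows of TLR6 and TLR8 are given as a pair with and without GAGGAA. TLR6 lies at chr4:38856818-38857067 on the minus strand, and this window is also upstream of the TLR1 form that starts at the same base. The TLR8 window, at chrX:12906370-12906619 on the plus strand, holds no capitals, which does not mean that it lacks other forms of ETS sites. It has the 1 match to TTGCNNAA. A match is a description of the letters and not a site shown to be bound.
TLR6: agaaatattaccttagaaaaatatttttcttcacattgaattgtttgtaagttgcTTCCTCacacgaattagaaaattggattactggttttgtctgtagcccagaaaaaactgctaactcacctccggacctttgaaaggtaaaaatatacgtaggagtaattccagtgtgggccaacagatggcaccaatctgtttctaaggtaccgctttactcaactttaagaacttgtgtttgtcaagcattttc
TLR8: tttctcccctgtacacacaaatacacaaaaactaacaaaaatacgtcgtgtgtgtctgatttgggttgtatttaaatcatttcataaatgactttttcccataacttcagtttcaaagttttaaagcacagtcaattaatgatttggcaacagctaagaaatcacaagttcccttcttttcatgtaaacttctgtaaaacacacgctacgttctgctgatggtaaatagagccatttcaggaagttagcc

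Under periplocin the genes moved apart in K562 and mostly rose in THP-1. In K562, CD14 and CD36 were higher and TLR1, TLR6 and TIRAP were lower, which made 5 of 10 genes called. In THP-1, 8 of 10 were called, all of them higher, and TLR2 and TIRAP were not. A gene was called where edgeR's exact binomial test on the pair of libraries gave an adjusted p under 0.05 and the fold change was at least 2. Across all genes tested, 8.18% were called higher and 10.1% lower in K562, and 8.28% higher and 9.76% lower in THP-1. These p-values cover counting error and compare 2 libraries, not conditions, since there was no replicate. The median log2 fold change was 0.60 over the 6 genes that averaged 1 CPM or more in K562 and 1.97 over the 9 in THP-1 (CPM is the count scaled to the library total), beside -0.01 and -0.02 over all genes at that level. The K562 median turns on which genes are kept, since CD14 and LY96 reach that level only through the periplocin library while TLR1 is left out. It was -0.09 over the 8 genes above 3 counts in either library, and the 10 genes summed to 109 CPM with DMSO and 108 CPM with periplocin. In bulk RNA, more cells of a type and more RNA per cell cannot be told apart.

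**Figure D1:**
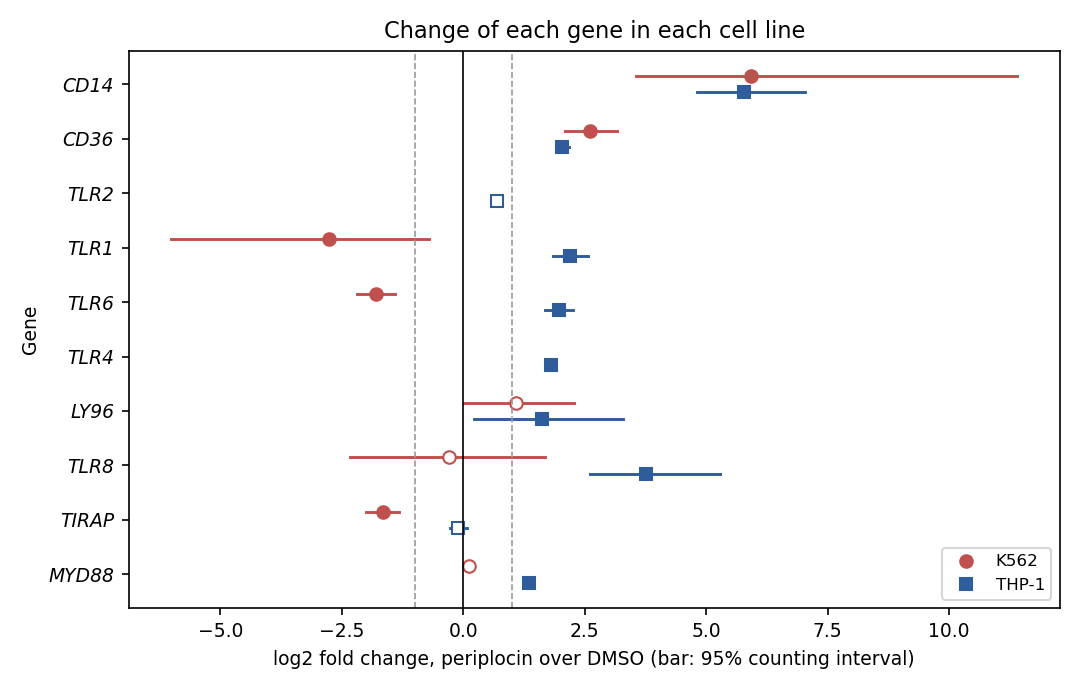
Log2 fold change of periplocin against DMSO for the 10 genes in K562 and THP-1, with 95% counting intervals. TLR2 and TLR4 had at most 3 counts in each K562 library and have no K562 point. Filled points were called, open points were not, and dashed lines mark a 2-fold change. CD14 lies at 5.92 in K562, a value that rests on 1 count with DMSO, and at 5.78 in THP-1. TLR1 and TLR6 lie below 0 in K562 and above 0 in THP-1.

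CD14 had the largest rise of the 10 genes in both cell lines. Its counts were 1 in K562 with DMSO and 69 with periplocin, a log2 ratio of 5.92 with a 95% counting interval of 3.56 to 11.41. The THP-1 libraries held 8 and 382 counts of it, and the log2 fold change was 5.78 (4.81 to 7.03). Scaled to the library totals, CD14 rose from 0.0610 to 4.17 CPM in K562 and from 0.388 to 21.6 CPM in THP-1. Both control libraries were therefore close to no CD14 RNA, and the THP-1 periplocin library held the most.

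CD36 also rose in both lines. It had 35 and 218 counts in the K562 libraries with DMSO and periplocin, a log2 fold change of 2.61 (2.09 to 3.17), and 616 and 2162 in THP-1, a log2 fold change of 2.04 (1.91 to 2.17). THP-1 held more CD36 than K562 under either condition. LY96, at chr8:73991352-74029087 on the plus strand, was scarce everywhere, with 11 and 24 counts in K562 and 6 and 16 in THP-1. Its log2 fold change of 1.62 passed the test in THP-1 (adjusted p = 0.0285, edgeR's exact binomial test), whereas 1.09 in K562 did not (adjusted p = 0.0675).

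**Figure D2:**
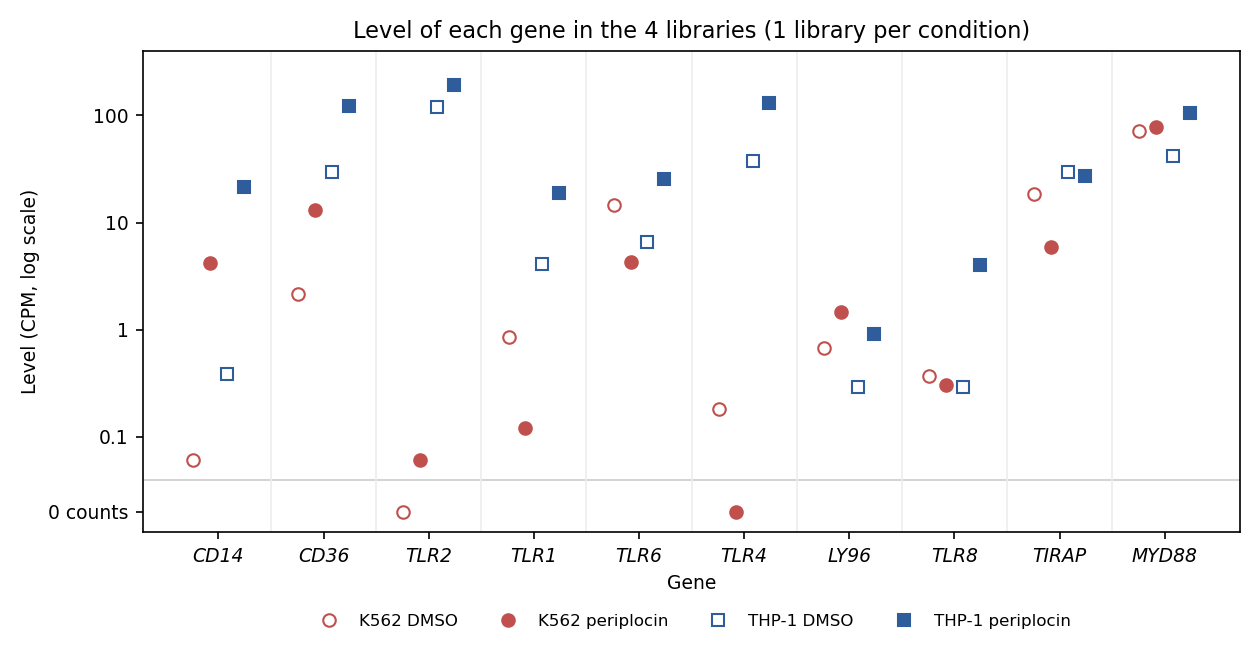
CPM of each of the 10 genes in the 4 libraries on a log axis, with 1 point per library; libraries with 0 counts are drawn below the grey line. CD14 and CD36 sit higher with periplocin in both lines, and TLR2 and TLR4 are at or near 0 in both K562 libraries.

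TLR1 and TLR6, the alternative partners of TLR2, moved in opposite directions in the cell lines. TLR6 had 241 counts in K562 with DMSO and 71 with periplocin, and 135 and 452 in THP-1. Its log2 fold change was -1.79 (-2.19 to -1.40) in K562 and 1.97 (1.69 to 2.26) in THP-1. TLR1 had 14 and 2 counts in K562, a log2 ratio of -2.76 with an interval of -6.01 to -0.71. With periplocin at or under the floor of 3 counts, the fall is 4.75-fold when read at that floor. The interval also reaches smaller falls than this. In THP-1 TLR1 had 85 and 333 counts, a log2 fold change of 2.20 (1.85 to 2.56). The lowest level of each gene was thus in K562 with periplocin and the highest in THP-1 with periplocin. Because their exons overlap, reads can be divided between them, and both THP-1 DMSO values were deposited as fractions that sum to 220. The sum of the pair was 255 and 73 counts in K562 and 220 and 785 in THP-1, so it moved in the directions of its members. TLR1 made up 5.49% of the pair in K562 DMSO (exact Clopper-Pearson 95% interval 3.03 to 9.04) and 38.6% in THP-1 DMSO (32.2 to 45.4), and with periplocin it made up 2.74% and 42.4%. These intervals cover counting error only.

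TLR2 and TLR4 were read almost wholly from THP-1. TLR2 had 2447 and 3393 counts in THP-1 with DMSO and periplocin, a log2 fold change of 0.70 (0.63 to 0.78) that passed the test but stayed under 2-fold. In K562 it had 0 and 1 counts, at or under the floor of 3, so no fold is given. TLR4 had 781 and 2314 counts in THP-1, a log2 fold change of 1.80 (1.68 to 1.92), and 3 and 0 in K562, where again no fold is given. TLR8 had 6 and 71 counts in THP-1, a log2 fold change of 3.77 (2.60 to 5.29), and 6 and 5 in K562 (-0.28, -2.34 to 1.69).

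The adaptors were present in every library. MYD88 had 1179 and 1298 counts in K562, where its log2 fold change was 0.11 (adjusted p = 0.0865, edgeR's exact binomial test), and 862 and 1866 in THP-1, a log2 fold change of 1.34 (1.23 to 1.46). TIRAP had 301 and 97 counts in K562, where it fell by 1.66 on the log2 scale (-2.01 to -1.33), and 611 and 484 in THP-1, where the log2 fold change was -0.11 (-0.28 to 0.07). The lowest TIRAP level was thus in K562 with periplocin, and the highest MYD88 level in THP-1 with periplocin.

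Levels of different genes were compared per kilobase of exon, with the exons of all annotated forms of a gene merged. This length was 10880 bp for CD36 and 13272 bp for TLR4, against 1886 bp for CD14. Which forms were expressed was not examined, so the values and their order depend on this choice of length. MYD88 was the most abundant of the 10 in K562, at 18.0 CPM per kb with DMSO and 19.6 with periplocin. In THP-1 TLR2 was first, at 22.7 and 36.7 CPM per kb, followed by MYD88 at 10.5 and 26.4. CD14 moved from 8th to 3rd of the 10 in K562, at 0.0324 and 2.21 CPM per kb, and from 9th to 3rd in THP-1, at 0.206 and 11.4. In THP-1 with periplocin CD14 and CD36 stood beside each other at 11.4 and 11.2 CPM per kb, and with 1 library there is no spread between replicates to order such neighbours.

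The response was compared between the lines by a Poisson interaction test, the log2 change in THP-1 minus that in K562, for the 8 genes above the floor in both. Of all genes, 17.0% passed this test with at least a 2-fold difference, 8.95% with the higher response in THP-1 and 8.09% with the lower, and 6 of the 10 passed, all with the higher response in THP-1. TLR4 was 1 of the 6, but with 3 and 0 counts in K562 its value is not read. TLR6 differed by 3.75 (exact 95% interval 3.27 to 4.25), TLR1 by 4.95 (2.85 to 8.22) and TLR8 by 4.04. MYD88 differed by 1.23 (1.06 to 1.39) and TIRAP by 1.55 (1.17 to 1.94). CD14, with a difference of -0.14 and an interval of -5.77 to 2.66, CD36, with -0.57 (-1.15 to -0.04, adjusted p = 0.0561), and LY96, with 0.53 (-1.35 to 2.54), did not pass, and the interval for CD14 is too wide to show that its responses were alike. The test carries counting error only.

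**Figure D3:**
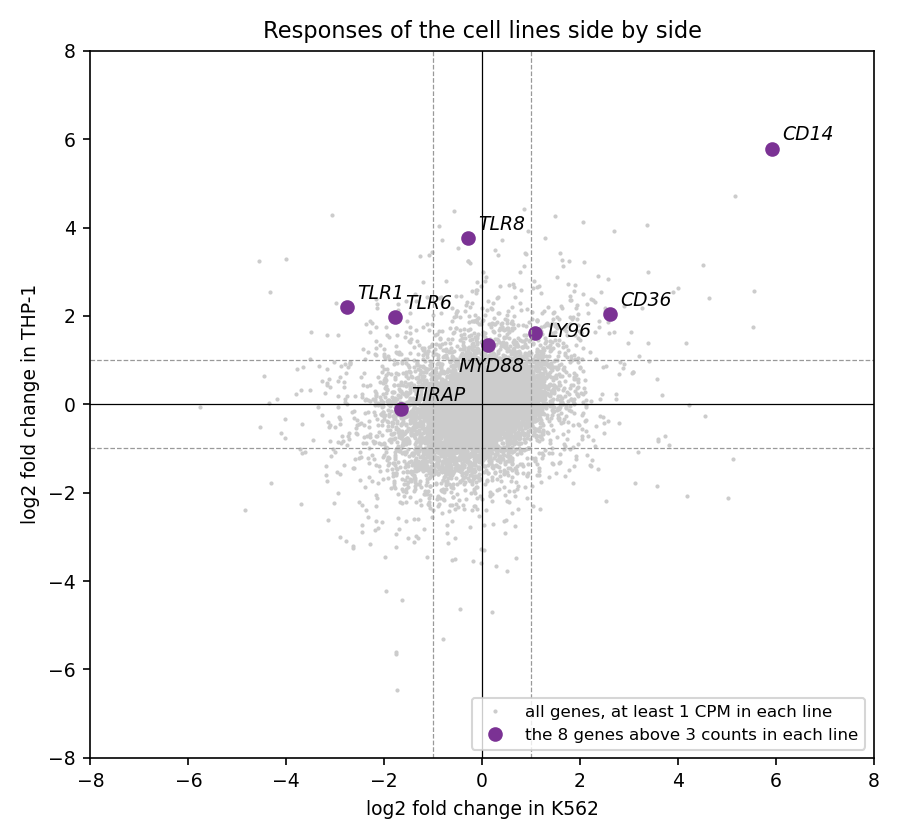
Log2 fold change of periplocin against DMSO in K562 (x axis) and THP-1 (y axis); grey points are genes with at least 1 CPM on average in each line, of which 12 lie beyond the axes, and purple points are the 8 genes above 3 counts in each line. TLR1 and TLR6 lie in the upper left and CD14 in the upper right.

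The 4 libraries were also fitted together by edgeR's quasi-likelihood test with cell line and treatment as terms, which has 1 residual degree of freedom and takes its error from how far the responses of the lines differ. For treatment, 0 of the 9 genes that could be tested passed, as 0% of all genes did, and 2 had an unadjusted p under 0.05. They were CD14, with a log2 fold change of 5.82 (adjusted p = 0.385), and CD36, with 2.30 (adjusted p = 0.385), and across all genes 11.1% had an unadjusted p under 0.05. DESeq2 called these 2 genes, CD14 with adjusted p = 2.05e-05 and CD36 with adjusted p = 0.000141, against 0.957% of genes called by that tool, 0.552% higher and 0.405% lower. Between the lines, 5 of the 9 were called, all higher in THP-1, against 18.9% of all genes called higher and 34.9% called in either direction. They were TLR2, with a log2 difference of 12.15, TLR4, with 9.68, TLR1, with 4.41, CD36, with 3.61, and CD14, with 2.54. With K562 at or under the floor, the values of TLR2 and TLR4 depend on the prior count. MYD88 differed by -0.05 between the lines and TLR6 by 0.82, and neither passed.

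Other genes of the pathway were taken from lists written from general knowledge, with earlier results of these data known. What follows is therefore a description and not an independent test. Their shares are read against those over all genes tested, 8.18% higher and 10.1% lower in K562 and 8.28% and 9.76% in THP-1. A list share counts every gene on the list, while the shares over all genes leave out genes with no count in the pair of libraries. Lists with such genes therefore have lower shares than a like comparison would give. Among 12 other Toll-like receptors and receptor chaperones, 5 (41.7%) rose in THP-1 and 0 fell. They included TLR7, an endosomal RNA sensor, which went from 10 to 193 counts, and CD180 with its partner LY86, which went from 624 to 2671 and from 477 to 1087. In K562 1 of these 12 rose and 1 fell (8.33% each), near the shares over all genes, and CD180 and LY86 had at most 1 count in a library. Of 28 genes that relay the signal below the receptors, 4 (14.3%) rose and 0 fell in THP-1, among them the kinase IRAK2, from 42 to 237 counts. In K562 3 fell (10.7%, near the share over all genes) and 0 rose, among them the kinase IKBKE, from 146 to 46 counts. Of 21 inhibitors, 3 (14.3%) rose and 0 fell in THP-1, and 4 rose and 4 fell (19% each) in K562. SARM1 was higher in both lines, by 2.22 in K562 and 2.37 in THP-1 on the log2 scale, while ATF3 fell by 1.48 in K562 and was higher by 2.06 in THP-1.

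Inflammatory genes that TLR signals switch on rose in THP-1 for 9 of 25 (36%) and fell for 0. The median log2 fold change was 1.31 over the 13 that averaged 1 CPM or more, and 0.59 without CCL2, CCL3, CXCL8 and IL1B, which were under 1 CPM with DMSO. The chemokine gene CCL2 went from 8 to 349 counts, the adhesion gene ICAM1 from 63 to 506 and the chemokine gene CCL5 from 666 to 1535. In K562 1 (4%) rose and 5 (20%) fell, and IL6 went from 195 to 50 counts. The median there was -1.08, or -0.66 without the 3 that were under 1 CPM in a library. Of the 25, 17 had counts in K562 and 23 in THP-1. Of 18 transcription factors tied to these promoters, 1 (5.56%) rose and 5 (27.8%) fell in K562, and 4 (22.2%) rose and 2 (11.1%) fell in THP-1. SPI1, an ETS factor that binds the form searched for upstream, had 339 and 179 counts in K562 and 3702 and 4377 in THP-1. It was not called in either. EGR1 fell by 2.25 in K562 and by 1.15 in THP-1 on the log2 scale.

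**Figure D4:**
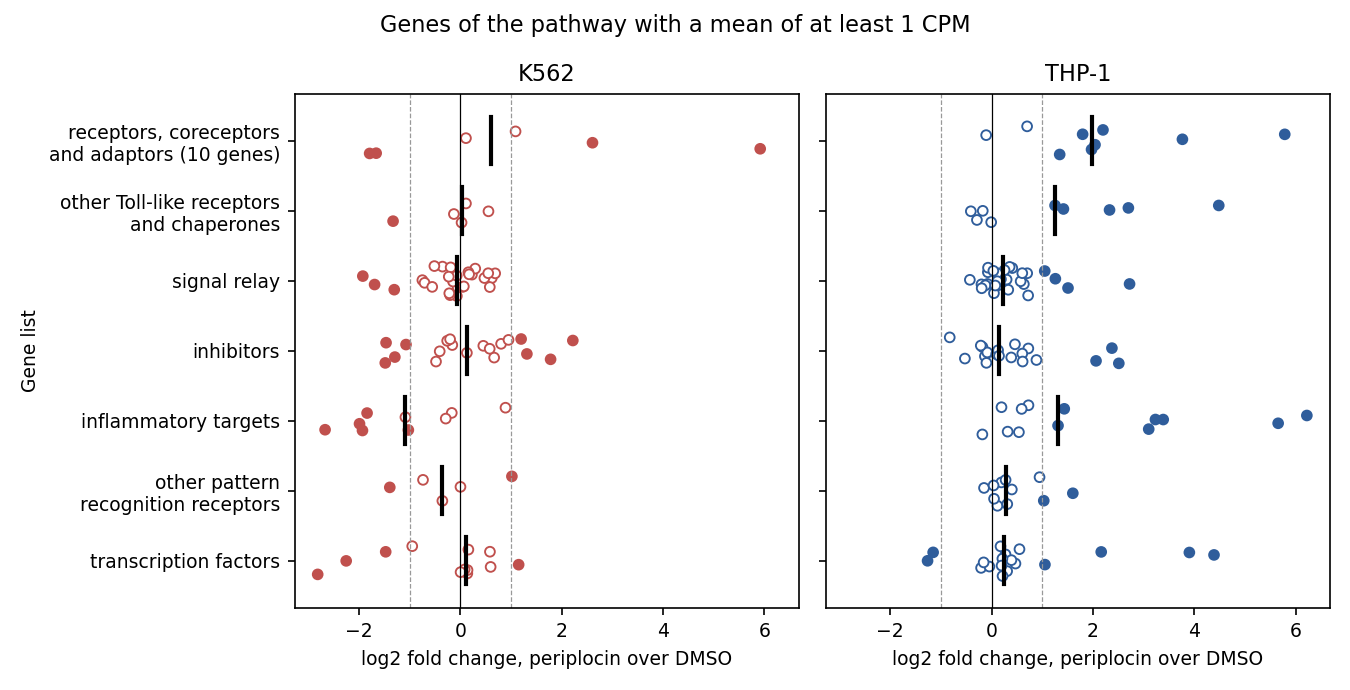
Log2 fold change of periplocin against DMSO for the genes of each pathway list in K562 and THP-1, with 1 point per gene that averaged 1 CPM or more, filled where called and open where not, and a black bar at the median. The inflammatory targets have a median of -1.08 in K562 and 1.31 in THP-1, which become -0.66 and 0.59 without genes under 1 CPM in a library.

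Cell type markers were read beside these values. Summed over 14 monocyte markers, the level was 89.9 and 113 CPM in K562 and 1074 and 1291 CPM in THP-1, with 6 above the floor in each K562 library and 12 in each THP-1 library. In the K562 periplocin library, which had 69 CD14 counts, S100A8 and CD163 were at 0, but they had only 4 counts each in THP-1 with periplocin too. FCGR3A, MS4A7 and CCR2 went from 0 to between 3 and 5 counts in K562, and CSF1R and CX3CR1 had 3 in both libraries. Of the 14 monocyte markers, 1 (7.14%) rose in K562, ITGAM from 33 to 75 counts, and 2 (14.3%) fell, CD33 from 362 to 127 and FCGR1A from 11 to 2. Over all genes 8.18% rose and 10.1% fell in K562, against 8.28% and 9.76% in THP-1. CD68 had 289 and 569 counts in K562 and LYZ 752 and 1062, neither of which was called. In THP-1 4 (28.6%) of the monocyte markers rose and 3 (21.4%) fell. Those that rose were ITGAM, CD68, CX3CR1 and FCGR1A, which has near-identical gene copies and went from 1724 to 4006 counts. Those that fell were MS4A7, from 2772 to 1067 counts, S100A9, from 96 to 3, and S100A8, from 25 to 4. The 14 erythroid markers summed to 3292 and 14694 CPM in K562, where 13 (92.9%) rose and 0 fell. They summed to 258 and 249 CPM in THP-1, where 0 rose and 2 (14.3%) fell, both from at most 24 counts. Of 7 lymphocyte markers, 3 were above the floor in each library and none was called in either line. The part of these markers in the changes of the 10 genes was not tested.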

How the data were processed

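The authors deposited 1 table of unnormalized expected counts by gene for 4 libraries, with 0 unused columns. Submitters' processing notes name HISAT2, StringTie 1.3.1 and hg38, and the counting program is not given in the sources used here. The methods name the T7 platform and the labels an Illumina instrument. Values were rounded to integers. For each line edgeR 4.0.16 (R 4.3.3) gave TMM factors and its exact binomial test was run on genes with at least 1 count, with Benjamini-Hochberg adjustment over all of them, a prior count of 0.125 and a floor of 3 counts. The lines were compared by a Poisson interaction test, and all 4 libraries by edgeR's quasi-likelihood test on the 13584 genes that reached 10 counts in 2 or more libraries, with DESeq2 1.42.0 as the alternative. The tests were checked on simulated data. The text names all 10 genes and, from each list and line, the 3 called genes with the largest change among those with a mean of at least 5 CPM. Those nearest to CD14 and TLR6 by log2 fold changes are also named. SPI1, CCL3, CXCL8, IL1B and the monocyte markers outside this rule were chosen after their values were seen. An item that this rule would name is not reported here. Members and lists were chosen with earlier results of these data known. Alternatives were other scalings, filters, dispersions, fold thresholds and prior counts. Library totals of 16381172 to 20622719 counts set the precision.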

Additional observations from a re-analysis of the deposited data

Results flagged for a closer look

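Of 41 results checked, 18 had a response that differed between the cell lines by the Poisson interaction test, which carries counting error only, beside 17.0% of all genes. Of the 41, 31 were named because they had large changes in 1 of the lines, so the number that differed says nothing about the lists. Values are the log2 change in THP-1 minus that in K562. Among the 10 genes they were 4.95 for TLR1, 3.75 for TLR6, 4.04 for TLR8, 1.23 for MYD88 and 1.55 for TIRAP. In the signal relay they were 2.04 for IKBKE, 1.33 for PELI2, 2.09 for IRAK2 and 1.45 for MAP3K8. Among inhibitors they were 3.53 for ATF3 and -1.92 for SIGIRR. ICAM1, an inflammatory target, differed by 3.51, and STING1, a sensor of cyclic dinucleotides, by 1.42. The factors EGR1 and CEBPB differed by 1.09 and 1.74. FCGR1A differed by 3.86 with 11 and 2 counts in K562, and it has near-identical gene copies between which reads may be divided. The globin genes HBZ and HBA1 differed by -2.82 and -1.95 with at most 19 counts in a THP-1 library, and HBA1 has a near-identical copy, HBA2.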

How the results depend on the processing

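No paired analysis was possible because each condition has 1 library and so 1 replicate number, other than the fit over 4 libraries, which has cell line as a term. For the same reason no library was left out. With other scalings, count minimums, no filter or a prior count of 2, each count of genes stayed within 1.5 times its value. Assuming a dispersion of 0.16 between replicates left 1 of the 5 genes called in K562 and 1 of the 8 in THP-1, which was CD14 in each line. A fold of at least 4 left 3 and 4. Of the 6 genes whose response differed between the lines, a dispersion of 0.04 left 3 and a dispersion of 0.16 left 0, with 4 at an unadjusted p under 0.05. The count for treatment over both lines went from 0 to 2 with DESeq2, and that for cell line from 5 to 6. The 19 calls of single genes were set against 166 alternatives, of which 134 kept the call, 29 lost it, 3 left the gene untested and 0 changed direction. Untested were TLR1 in K562 and LY96 in THP-1 at a mean of 1 CPM, and the TLR8 difference at 10 counts. Of the losses, 23 came at a dispersion of 0.16 or a fold of 4, and 6 at a dispersion of 0.01 or 0.04, among them TLR1 in K562 and LY96 in THP-1. List medians over genes at 1 CPM in both libraries of a pair were chosen after seeing the data. Low counts limit TLR1, TLR8, CD14 and LY96 in K562.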

Other observations

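Among 20 other pattern recognition receptors, 3 (15%) rose and 2 (10%) fell in K562, and 4 (20%) rose and 1 (5%) fell in THP-1. Over all genes 8.18% rose and 10.1% fell in K562, against 8.28% and 9.76% in THP-1. IFIH1, a cytosolic RNA sensor, had 236 and 487 counts in K562 and 301 and 780 in THP-1, and rose in each. STING1 fell from 1727 to 671 counts in K562 and had 7241 and 6348 in THP-1, and NOD2, a sensor of bacterial cell wall, had 0 counts in both K562 libraries and went from 128 to 223 in THP-1.

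By distance between log2 fold changes in both lines, over 10780 genes with at least 1 CPM on average in each, the gene nearest to CD14 was AQP1, a water channel gene, at 5.16 in K562 and 4.72 in THP-1. The next were CCDC168 and RAB38, the latter at a distance of 3.08. The K562 value of CD14 rests on 1 count with DMSO. Nearest to TLR6 was ZC3H12C, at -1.79 and 1.89, then SLC37A2 and ACSL1, at distances of 0.174 and 0.273. Of these 10780 genes, 90 (0.835%) were called lower in K562 and higher in THP-1, as TLR6 was, and 183 (1.7%) were called higher in both, as CD14 and CD36 were.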
